A study of Mus musculus with 4 samples.

Results

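The genes described here are 10 classical markers of astrocytes, Aqp4, Gfap, S100b, Glul, Aldoc, Fabp7, Clu, Apoe, Sparcl1 and Gja1, read by every probe set of the array that the probe annotation assigns to 1 of them alone. This rule gave 16 of the 12422 probe sets measured, 2 for each of 6 genes and 1 for each of 4. Gene expression was measured on 4 single-channel oligonucleotide arrays, each hybridised with total RNA of the prefrontal cortex pooled from 4 female mice. The control group was 2 pools of FVB/N mice, and the transgenic group was 2 pools of mice overexpressing the human synaptic form of acetylcholinesterase (AChE), which ends cholinergic signalling by splitting acetylcholine. The labels give neither the age of the mice, nor the promoter of the transgene or the number of lines, nor the strain background of the transgenic mice, so a strain difference and the transgene cannot be told apart, nor can a batch, which the labels do not give, and the group. They also do not say that the 2 pools of a group held different mice, so the spread behind every p-value is that between these samples and may be technical only.

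Astrocytes are the glial cells that tile the cortex, wrap synapses and cover blood vessels with endfeet. They take up glutamate and potassium released by neurons, return glutamine to them, supply lipids in lipoprotein particles and move water through aquaporin 4 in the endfoot membrane. They are joined into a network by gap junctions. The markers used here cover these functions, but most are not unique to astrocytes: Apoe is also made by microglia, Clu by some neurons, S100b and Glul by oligodendrocytes, and Fabp7 by neural progenitors.

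The arrays had median intensities of 86.6 to 88.2. The probe set of mouse Ache read 599.5 and 621.9 in control pools, against 365.3 and 355.6 in transgenic pools (a log2 change of -0.76 ± 0.14 SE, limma adjusted p = 0.00768). It was designed on the mouse transcript and does not check the human transgene. Xist, the RNA of the inactive X chromosome of females, read 29.3 and 21.1 in control pools, against 178.5 and 228 in the transgenic pools. The log2 change was 3.02 ± 0.31 SE (limma adjusted p = 0.000165). Uty, Kdm5d and Eif2s3y, on the Y chromosome, read at most 28 on any array, so the signals of the control pools do not show their labelled sex. The cause of the Xist difference was not tested, and it cannot be told apart from the group. Of 8 genes fixed as markers of cortical neurons, 5 were on the array and all 5 passed the intensity filter. Of these, 1 rose and 1 fell (40%, where 9.49% of all genes passed). Neurod2 rose by 2.07 on the log2 scale, Camk2a fell by 1.54, and Cux2 had -0.66 ± 0.28 SE (limma adjusted p = 0.187). Without transgenic replicate 1 the log2 change of Camk2a was -1.03.

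Aqp4 and Fabp7 rose in the transgenic pools, S100b, Clu and Apoe fell, and the other 5 genes did not pass the test. Differences were tested with limma as transgenic minus control on log2 intensities, with Benjamini-Hochberg adjustment over all 7453 probe sets above an intensity filter and a threshold of 0.05. Folds are antilogs of these log2 changes. Of the 16 probe sets, 15 passed the intensity filter, at least 1 for each of the 10 genes. In all 3 rose and 3 fell, against 5.46% of all tested probe sets that rose and 4.56% that fell (10% in either direction). The members and the gene lists used below were chosen with earlier results of these data known, so such shares do not test for an excess. The 2 groups did not overlap at 11 of the 15, which was also the case at 53.7% of all tested probe sets. The median log2 change over the 15 was -0.10, against -0.03 over all tested probe sets (quartiles -0.26 and 0.21). Of the 15 changes, 5 lay above 0 and 10 below. In bulk tissue, a change in the number of astrocytes and a change in RNA per astrocyte cannot be told apart.

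**Figure D1:**
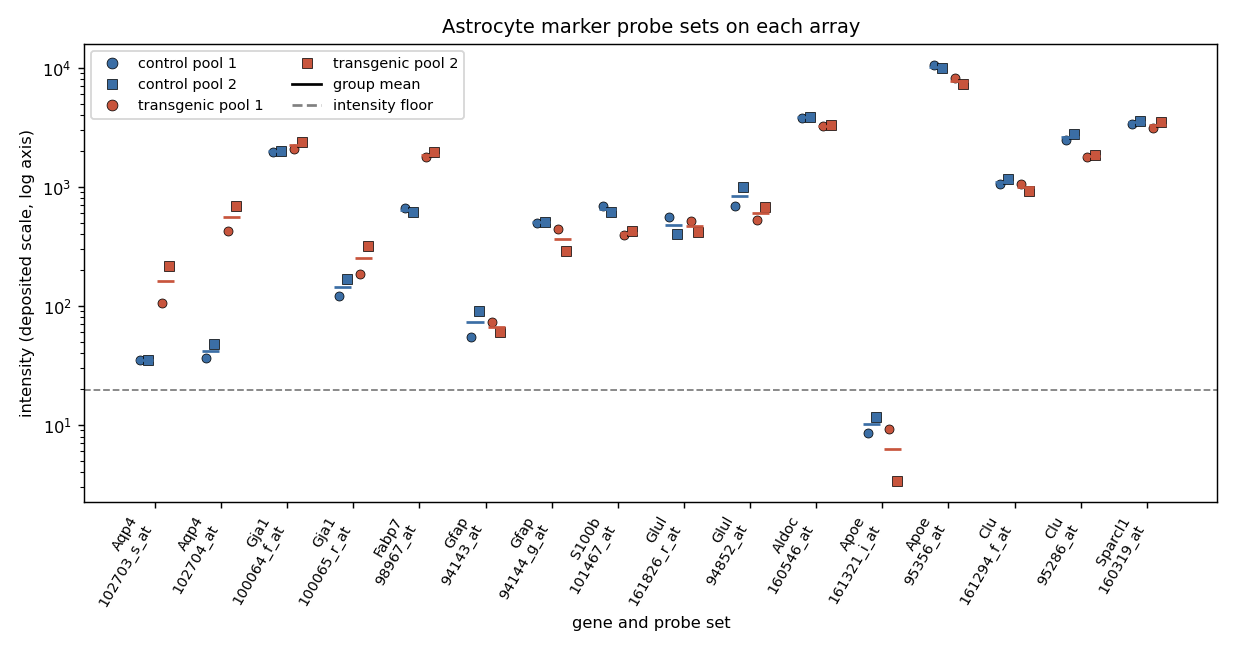
Intensity (log axis) of the 16 astrocyte marker probe sets in each of the 4 pools, with a bar at the mean of each group and a dashed line at the intensity floor of 19.675. The largest gaps between the groups are those of Aqp4 and Fabp7, and probe set 161321_i_at of Apoe lies under the floor in all 4 pools.

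The stretches before the transcription start of Fabp7, which rose, and of S100b, which fell, are shown because they are the called markers with a single start site in the promoter table (RefSeq, build GRCm38.p6). The table held 7 of the 10 genes by symbol, all but Aqp4, Clu and Sparcl1. Both stretches are the 250 bases before the start on the plus strand, Fabp7 at chr10:57784673-57784922 and S100b at chr10:76253586-76253835, and capitals mark TTGGC, which nuclear factor I proteins bind, on either strand.
Fabp7: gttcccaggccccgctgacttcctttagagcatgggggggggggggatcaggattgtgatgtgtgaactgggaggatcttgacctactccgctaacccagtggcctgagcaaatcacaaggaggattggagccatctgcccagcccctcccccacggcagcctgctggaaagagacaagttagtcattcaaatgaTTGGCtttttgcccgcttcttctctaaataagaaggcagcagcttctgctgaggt
S100b: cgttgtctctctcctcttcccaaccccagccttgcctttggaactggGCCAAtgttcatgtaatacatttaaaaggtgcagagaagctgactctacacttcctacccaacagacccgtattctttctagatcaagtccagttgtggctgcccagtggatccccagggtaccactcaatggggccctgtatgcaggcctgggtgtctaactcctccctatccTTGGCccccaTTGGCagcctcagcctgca
The motif began 55 bases before the start of Fabp7 and 203, 29 and 19 bases before that of S100b. The 7 genes have 10 windows in the table, since Apoe and Aldoc have several starts, and 6 of these 10 windows held at least 1 match, as did 41.5% of all 32851 promoter windows of this length. CCAAT, searched on both strands, was found in 3 of the 10 (33.8% of all windows), and it shares letters with TTGGC wherever the latter is preceded by A. TGANTCA, which AP-1 proteins bind, was found in 1 of the 10, that of Gja1, and in 6.75% of all windows. These matches describe the letters only, and the rising and the falling gene both held TTGGC and CCAAT.

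Aquaporin 4, the main water channel of the brain, showed the largest change among the markers. Probe set 102704_at read 36.7 and 47.5 in control pools, against 424.3 and 684.5 in the transgenic pools. This was a 12.9-fold rise, from 42.1 ± 7.64 (SD, n = 2) to 554 ± 184 (SD, n = 2), a log2 change of 3.69 ± 0.26 SE (limma adjusted p = 1.49e-05). It ranked 26 of 7453 tested probe sets from the highest log2 change, 118 of which (1.58%) exceeded 2. The second probe set, 102703_s_at, read 35.1 and 35.4 in control pools, against 105.4 and 217.3 in the transgenic pools. It rose 4.29-fold (log2 change 2.10 ± 0.36 SE, adjusted p = 0.00525).

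Both Aqp4 probe sets were thus dim in the control pools, though above the floor of 19.675, and both were higher in each transgenic pool than in each control pool. The intensity filter used the mean over all 4 arrays, and both passed it only through the transgenic pools. Crabp2, with readings of 41.6 to 55.8, did not pass that filter. The ranks and adjusted p of Aqp4 are therefore not independent of the difference between the groups. The annotation lists the 2 Aqp4 probe sets under different source sequences, and the suffix _s_at marks probes that can match more than 1 transcript. Their changes were unequal: 102703_s_at changed by 1.59 ± 0.34 SE less on the log2 scale than 102704_at (adjusted p = 0.0165 with limma, fitted to 1051 pairs of probe sets of the same gene, of which 10.8% passed). Leaving out transgenic replicate 1 or transgenic replicate 2 brought the adjusted p of that difference to 0.174 and 0.106 (range over its alternatives 0.000385 to 0.174).

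The transgenic pools differed from each other at Aqp4 more than at most probe sets. Pool 2 exceeded pool 1 by 0.69 on the log2 scale at 102704_at and by 1.04 at 102703_s_at, and only 5.93% and 1.89% of tested probe sets differed as much between these pools. The median difference between the transgenic pools over all tested probe sets was 0.20. Without transgenic replicate 2 the log2 change of 102703_s_at was 1.58 and did not pass. Its highest adjusted p over the alternatives was 0.249 in limma, without the intensity filter. The log2 change of 102704_at lay between 3.35 and 4.04 when any 1 pool was left out.

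The patterns nearest to that of Aqp4 102704_at over the 4 arrays came from genes of other functions. Nearness was the Euclidean distance between log2 values centred on each probe set's mean, a description over 4 arrays that is set almost wholly by the difference between the groups. The nearest 5 were Clcn3 at 94465_g_at, a chloride-proton exchanger (distance 0.32), Apbb2 at 160903_at, which binds the amyloid precursor protein (0.33), Myt1l at 96496_g_at, a neuronal transcription factor (0.35), Prkce at 94161_at, a protein kinase C (0.38), and Ube3a at 101581_at, a ubiquitin ligase (0.43). Their log2 changes lay between 3.46 and 3.94, with the control arrays at the floor for Ube3a and 1 of them for Apbb2. Clcn3, Myt1l and Prkce each have a brighter tested probe set, whose change is not given here, so these rises are those of the named probe sets. The second Aqp4 probe set lay farther away, at a distance of 1.63.

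**Figure D2:**
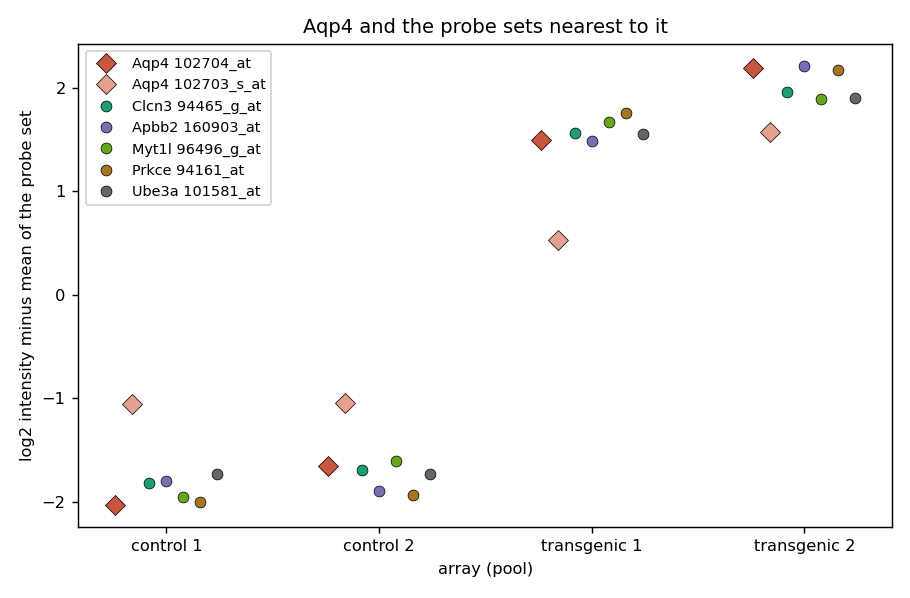
Log2 intensity minus the mean of each probe set for both Aqp4 probe sets (diamonds) and the 5 nearest probe sets of other genes (circles) in each pool. The circles follow 102704_at in all 4 pools, and 102703_s_at spans a smaller range.

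Other water channels gave little signal, as did Aqp4 itself in the control pools (35.1 to 47.5). Of 10 further aquaporin genes, 6 were on the array and 1 passed the intensity filter, Aqp8, with 63.8 and 35 in the control pools, 68.1 and 81.3 in the transgenic pools and a log2 change of 0.65 ± 0.37 SE (adjusted p = 0.319). Aqp1, Aqp2, Aqp7, Aqp9 and Mip lay under the filter, and their highest readings on any array were 86.8, 31.9, 57.7, 40.4 and 11.3. Aqp4 is held in the endfoot membrane by the dystrophin complex, which binds laminin and agrin in the vessel wall. Of 13 tested genes of that complex and its matrix ligands, 1 rose and 1 fell (15.4%, where 9.49% of all 5701 genes, read from their brightest tested probe set, passed, 5.0% upward and 4.49% downward), with a median log2 change of -0.08.

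The fall was that of Agrn, which clusters the complex (1.5-fold, log2 change -0.59 ± 0.14 SE, adjusted p = 0.028), and a second Agrn probe set fell by 0.54 (adjusted p = 0.0324). The rise was that of the laminin chain Lamb1 (1.94-fold, adjusted p = 0.0458). The collagen gene Col4a1 had 0.56 ± 0.22 SE (adjusted p = 0.147). Lamb1 did not pass when any 1 of the 4 pools was left out, and Agrn did not pass without control replicate 1 or either transgenic replicate.

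The connexin encoded by Gja1 is the main gap junction protein of astrocytes. Its bright probe set 100064_f_at read 1949.1 and 2019.4 in control pools, against 2062.8 and 2401.1 in the transgenic pools, with a log2 change of 0.17 ± 0.12 SE (limma adjusted p = 0.446). The dimmer 100065_r_at, listed under the same source sequence, read 122.2 and 167.4 in control pools, against 186.9 and 317.1 in transgenic pools (a log2 change of 0.77 ± 0.27 SE, adjusted p = 0.111).

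Neither Gja1 probe set passed. The groups did not overlap at either, as was the case at 53.7% of all tested probe sets. The difference in change between the Gja1 probe sets did not pass (0.60 ± 0.26 SE, limma adjusted p = 0.213). As for Aqp4, transgenic pool 2 gave the highest reading at both Gja1 probe sets. It exceeded pool 1 by 0.76 on the log2 scale at 100065_r_at, a gap reached by 4.44% of tested probe sets. At 100064_f_at the gap was 0.22, reached by 46.6%. Without control replicate 2 the log2 change at 100065_r_at was 0.99, and over its alternatives it lay between 0.39 and 1.15. Of 5 other tested connexin genes 0 passed in limma. Gjb6, also a connexin gene of astrocytes, had -0.61 ± 0.19 SE (adjusted p = 0.0781) at its brightest probe set and -0.01 ± 0.21 SE at another, and Gja5 and Gjb1 had -0.26 and 0.21.

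Fabp7, the brain fatty acid binding protein of astrocytes and radial glia, was the second gene that rose. Its probe set 98967_at read 664 and 616.7 in control pools, against 1786.6 and 1946.1 in the transgenic pools. The rise was 2.91-fold, from 640 ± 33.4 (SD, n = 2) to 1866 ± 113 (SD, n = 2), a log2 change of 1.54 ± 0.12 SE (limma adjusted p = 3.27e-05). In contrast to Aqp4, Fabp7 was bright in every pool, and its transgenic pools differed by 0.12 on the log2 scale. Its log2 change lay between 1.48 and 1.60 when any 1 pool was left out. Of 9 genes of the same lipid binding family on the array 2 were tested and 0 passed in limma: Fabp3 had -0.33 ± 0.17 SE (adjusted p = 0.271) and Fabp5 0.10 ± 0.22 SE (adjusted p = 0.82). The highest readings of the other 7 were between 4.9 and 64.8.

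Fabp7 is also a gene of neural progenitors, and some markers of immature neurons rose beside it. Of 10 tested neuroblast genes 3 rose, 0 fell and 7 did not pass (30% called, against 9.49% of all genes), Sox4 by 1.59, Sox11 by 1.43 and Cd24a by 0.76 on the log2 scale, and the list's median log2 change was 0.30. Their summed intensity was 3389 to 3712 in control pools, against 4627 to 4982 in the transgenic pools, and 0 of the 10 had an array at the floor. Cd24a and Sox11 did not pass without transgenic replicate 1, nor Cd24a and Sox4 without transgenic replicate 2. Red blood cell genes rose as well: all 3 that were tested passed, Hbb-b2 by 1.70, Hba-a1 by 1.58 and Alas2 by 1.30, and their summed intensity was 3378 to 3833 in control pools, against 10159 to 11888 in the transgenic pools. Alas2 did not pass without transgenic replicate 1 or 2. Globin genes have near-identical copies, whose signals may not be separated by the array. The part of neuroblast or blood RNA in the rises of Fabp7 and Aqp4 was not tested.

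**Figure D3:**
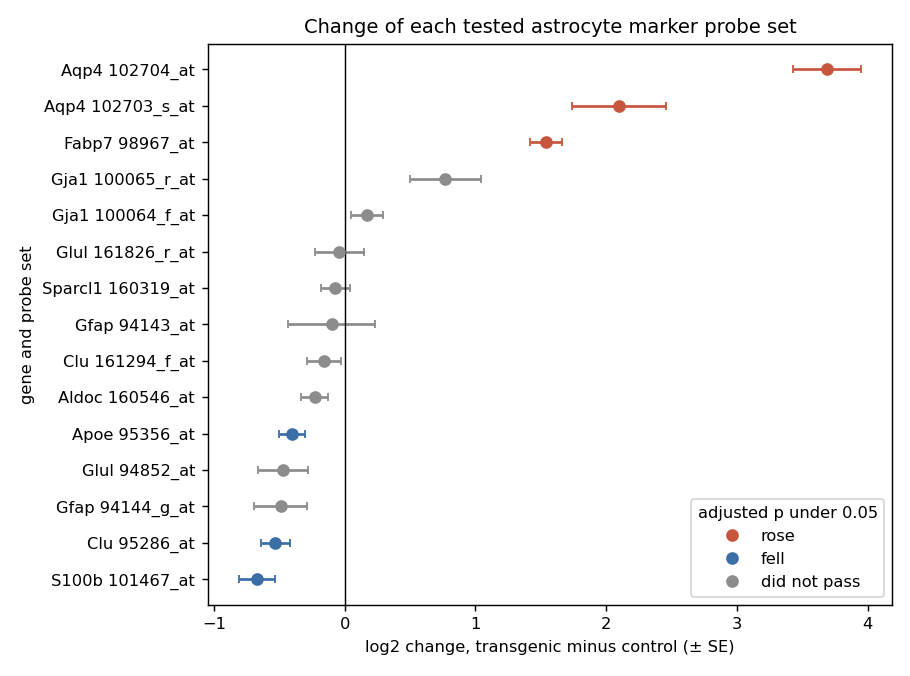
Log2 change, transgenic minus control, of the 15 tested astrocyte marker probe sets, with bars of 1 SE from the limma fit. Aqp4 at both probe sets and Fabp7 rose, S100b, Clu and Apoe fell at 1 probe set each, and 9 probe sets did not pass.

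S100b, a calcium-binding protein of astrocytes that is also secreted, showed the largest fall among the markers. It read 689.4 and 612.1 in control pools, against 390.4 and 424.3 in the transgenic pools at 101467_at. The fall was 1.6-fold, from 651 ± 54.7 (SD, n = 2) to 407 ± 24 (SD, n = 2), a log2 change of -0.67 ± 0.14 SE (limma adjusted p = 0.0171). Both transgenic pools lay below both control pools. Without control replicate 1, transgenic replicate 1 or transgenic replicate 2 the adjusted p was 0.0751, 0.113 and 0.0902, and without the intensity trend it was 0.0804 (range over the alternatives 0.0108 to 0.158). Of 8 other tested S100 genes 0 passed in limma. The 3 of smallest p were S100a13 with 0.46 ± 0.14 SE (adjusted p = 0.0652), S100a5 with 0.75 ± 0.25 SE (adjusted p = 0.0907) and S100a3 with -0.36 ± 0.20 SE (adjusted p = 0.32).

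The apolipoproteins of astrocytes both fell, by less than S100b. Clusterin, encoded by Clu, is a secreted chaperone found in lipoprotein particles. Its probe set 95286_at read 2479.3 and 2785.6 in control pools, against 1798.1 and 1852.5 in the transgenic pools (1.44-fold lower, log2 change -0.53 ± 0.11 SE, limma adjusted p = 0.0181). A second probe set, 161294_f_at, read 1049.3 and 1157.9 in control pools, against 1066.6 and 918.3 in the transgenic pools. There the groups overlapped, and the log2 change was -0.16 ± 0.13 SE (adjusted p = 0.533). The 2 probe sets of Clu, listed under different source sequences, were not shown to differ in their change (0.37 ± 0.18 SE, adjusted p = 0.26). The call at 95286_at was lost without control replicate 2, transgenic replicate 1 or transgenic replicate 2 (adjusted p = 0.0993, 0.104 and 0.101) and without the intensity trend (0.132), in a range of 0.012 to 0.176 over all alternatives.

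Apolipoprotein E carries cholesterol and phospholipids from astrocytes to neurons. Its probe set 95356_at read 10598.5 and 9872.2 in control pools, against 8204.6 and 7352.3 in the transgenic pools. The fall was 1.32-fold, from 10235 ± 514 (SD, n = 2) to 7778 ± 603 (SD, n = 2), a log2 change of -0.40 ± 0.10 SE (limma adjusted p = 0.0344). Both transgenic pools lay below both control pools, but this was the least stable call among the markers. After quantile normalization the log2 change was -0.13 (adjusted p = 0.28), and leaving out control replicate 1 or 2 or transgenic replicate 1 or 2 gave adjusted p = 0.213, 0.0664, 0.0645 and 0.158 (range over all alternatives 0.0129 to 0.47). A second Apoe probe set, 161321_i_at, read 3.4 to 11.7, under the floor on all 4 arrays, and was not tested.

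Among 14 other tested genes of lipoprotein handling, 1 rose and 1 fell (14.3%), with a median log2 change of 0.06. Abca1, the transporter that loads lipid onto apolipoprotein E, rose 2.02-fold, from 130.3 and 139.6 in the control pools to 257 and 288.1 in the transgenic pools (adjusted p = 0.00645). Sorl1, a sorting receptor that binds apolipoprotein E, fell 2.7-fold, from 133.4 and 123.3 to 31.2 and 72.5 (adjusted p = 0.0444). Psap, the precursor of the saposins, had -0.41 ± 0.13 SE (limma adjusted p = 0.0846) at its brightest probe set and -0.07 ± 0.15 SE (adjusted p = 0.83) at 161476_at. Only at 97560_at did Psap pass, with a fall of 2.20. Abca1 did not pass without transgenic replicate 1 or 2, and Sorl1 did not pass without transgenic replicate 1.

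Gfap, the intermediate filament protein that marks reactive astrocytes, did not pass at either probe set. At 94144_g_at it read 492.9 and 511.3 in control pools, against 446.7 and 287.7 in transgenic pools (a log2 change of -0.49 ± 0.20 SE, limma adjusted p = 0.176). The transgenic pools lay lower, but they differed from each other by 0.63 on the log2 scale, a gap reached by 7.16% of tested probe sets. The log2 change was -0.80 without transgenic replicate 1 (adjusted p = 0.0634) and -0.17 without transgenic replicate 2 (adjusted p = 0.596), the ends of its range over the alternatives. The dimmer 94143_at, of the same source sequence, read 55.3 and 90.7 in control pools, against 72.9 and 59.9 in the transgenic pools, with overlapping groups and a log2 change of -0.10 ± 0.33 SE (adjusted p = 0.894). Of 11 other tested intermediate filament genes and their linkers 0 passed in limma, with Nefm, Nes and Plec at -0.35, 0.36 and -0.27 on the log2 scale.

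Among 11 tested genes of the reactive state of astrocytes 1 rose and 0 fell (9.09%), with a median log2 change of 0.00. Serpina3n, a secreted protease inhibitor induced in reactive astrocytes, rose 1.7-fold, from 527.1 and 609.3 in the control pools to 912.5 and 1021.6 in the transgenic pools (adjusted p = 0.00768), a call that was lost without transgenic replicate 1 or 2. The transcription factor Cebpd had 0.32 ± 0.22 SE (adjusted p = 0.434) and the lipid receptor S1pr3 -0.20 ± 0.18 SE (adjusted p = 0.56).

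Glutamine synthetase, encoded by Glul, converts the glutamate taken up by astrocytes into glutamine. At 94852_at it read 694.5 and 993.3 in control pools, against 528.8 and 681.9 in transgenic pools (a log2 change of -0.47 ± 0.19 SE, limma adjusted p = 0.171). At 161826_r_at it read 559.7 and 403.3 in control pools, against 514.9 and 416.5 in transgenic pools (a log2 change of -0.04 ± 0.19 SE, adjusted p = 0.935). Control pool 2 was the higher control at the first probe set and the lower one at the second, so the spread within groups was as wide as any difference between them. Without control replicate 1 the log2 change at 94852_at was -0.73, and over its alternatives it lay between -0.73 and -0.21. Of 8 other tested genes of the glutamate and glutamine cycle 0 passed in limma (median log2 change -0.09), and the 3 of smallest p were Asns with -0.35 ± 0.11 SE (adjusted p = 0.0749), Glud1 with 0.26 ± 0.15 SE (0.315) and Got2 with -0.24 ± 0.16 SE (0.415).

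Aldoc, the brain form of the glycolytic enzyme aldolase, varied little within groups. It read 3797.3 and 3860.6 in control pools, against 3257.5 and 3283 in the transgenic pools, a log2 change of -0.23 ± 0.10 SE (limma adjusted p = 0.198). Both transgenic pools lay below both control pools, with gaps within groups of 0.02 and 0.01 on the log2 scale, but the difference did not pass. Of 15 other tested genes of glycolysis and glucose supply, 1 rose and 2 fell (20.0%), with a median log2 change of -0.18. Aldoa, the more widely expressed aldolase, fell 1.61-fold (adjusted p = 0.00569) at 160090_f_at and had -0.04 ± 0.15 SE (adjusted p = 0.918) at 161889_f_at. Lactate dehydrogenase Ldha fell 1.35-fold (adjusted p = 0.0327), and hexokinase Hk1 rose 1.65-fold (adjusted p = 0.0454). Ldha did not pass when any 1 pool was left out, Hk1 did not pass without control replicate 1 or either transgenic replicate, and Aldoa did not pass without transgenic replicate 2.

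Sparcl1, or hevin, is a matrix protein that astrocytes secrete and that promotes synapse formation. It read 3403.6 and 3552.7 in control pools, against 3139.7 and 3485.5 in the transgenic pools. The groups overlapped, and the log2 change of -0.07 ± 0.11 SE (limma adjusted p = 0.741) was the smallest in relation to its error among genes with a single probe set. Of 9 tested relatives of Sparcl1 and other synapse-forming factors, 1 rose and 1 fell (22.2%). Spock1, a proteoglycan of the same family, fell 2.06-fold, from 1345.9 and 1492.2 to 579 and 813.6 (adjusted p = 0.00368). Cacna2d1, a calcium channel subunit that binds thrombospondins, rose 2.79-fold, from 62.6 and 59.2 to 141.5 and 204.2 (adjusted p = 0.00567, not passing without transgenic replicate 2), and Smoc1 had 0.54 ± 0.18 SE (adjusted p = 0.0996).

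**Figure D4:**
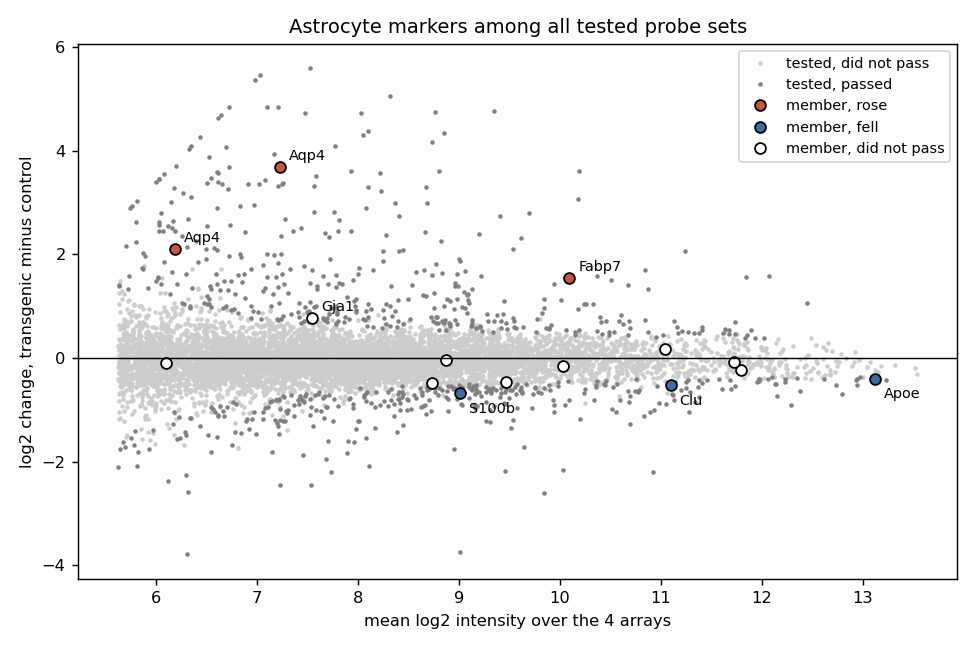
Log2 change, transgenic minus control, against mean log2 intensity for all 7453 tested probe sets, with the 15 astrocyte marker probe sets drawn as large circles. Aqp4 lies among the large rises of dim probe sets, Fabp7 stands above most probe sets of its brightness, and the markers that fell lie among bright probe sets with small changes.

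Astrocyte genes outside the 10 markers were split as well. Of 53 further genes fixed as astrocyte genes 38 were on the array and 33 were tested, of which 4 rose and 1 fell (15.2%, against 9.49% of all genes) with a median log2 change of 0.03. Id4, an inhibitor of differentiation factors, rose 3.51-fold, from 225.5 and 240.2 in the control pools to 824 and 809.5 in the transgenic pools (limma adjusted p = 2.80e-05). Slc4a4, which carries bicarbonate with sodium, rose 3.63-fold, from 38.6 and 32.6 to 128.7 and 128.8 (adjusted p = 0.00282). Mt3, the metallothionein of the brain, fell 1.87-fold, from 6966.2 and 6744.4 to 4252.2 and 3153.5 (adjusted p = 0.00262). The other rises were those of Mt1, another metallothionein, and of Dio2, which activates thyroid hormone. Slc4a4 and Dio2 did not pass without transgenic replicate 1 or without transgenic replicate 2, Mt1 did not pass without transgenic replicate 1, and Dio2 also did not pass without control replicate 1.

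**Figure D5:**
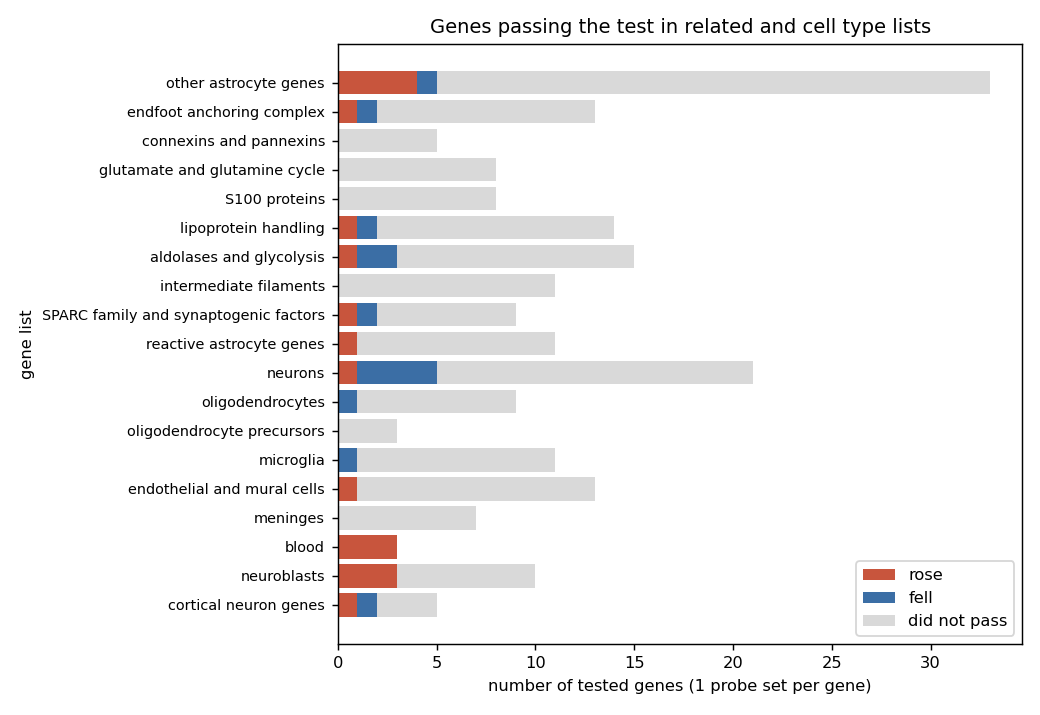
Number of tested genes that rose, fell or did not pass in each list related to the markers or to another cell type, with 1 probe set per gene and lists of at least 3 tested genes. In most lists the genes that did not pass make up the larger part, and all 3 blood genes rose.

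The calls depended on how dim probe sets were treated. Without the intensity filter, 12422 probe sets were tested, of which 2155 lay at the floor on all 4 arrays, and 0 of the 16 marker probe sets passed in limma. Of these 16, 6 had an unadjusted p under 0.05 in limma, as had 1913 of all 12422 probe sets. The limma adjusted p was then 0.0599 for Fabp7 and 0.109 for Aqp4 at 102704_at, the highest over their alternatives. Log2 changes of the 6 called probe sets kept their sign under every alternative run.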

How the data were processed

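The deposited values are linear intensities, 1 for each probe set on each array, as read from their range. What the authors used to derive them was not given in the sources used here. The mean of the values between percentiles 2 and 98 was 249.54 to 249.62 in every column, so the authors scaled the deposited intensities to a common level. Medians differed by 1.85% and upper quartiles by 2.29%, under the limit of 10% set for using the values as deposited.

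Of 12488 rows, 66 control probe sets were left out. Symbols came from the platform annotation, updated by gene identifier through the RefSeq table of GRCm38.p6, which has no stated link to the probes' build, so no positions are given for probe sets or genes. The only coordinates are those of the RefSeq promoter windows. Values were floored at percentile 25 (19.675), log2-transformed, and tested when the mean log2 value over all arrays exceeded percentile 40. Probe sets dim in the control pools could so be tested through the transgenic pools, as for Aqp4, Slc4a4, Elavl3, Prkce, Apbb2 and Ube3a. Differences came from limma 3.58.1 in R 4.3.3 (lmFit, eBayes with intensity trend, two-sided), with 2 residual degrees of freedom, 7.51 added by the shared variance and a median SE of 0.188. The number of arrays limits the precision. The fits were run on simulated data with independent normal noise of equal spread for all probe sets. This does not show how they behave with the spread and the floored values of these arrays.

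The members and gene lists were chosen with earlier results of these data known. Every member probe set is reported. List genes were read from their brightest tested probe set, and the 3 of smallest p are named for each list, with any others that passed. Replicate blocks, other floors, filters, scalings and variance models, and leaving out each array were tried as alternatives. Leaving out an array left its group without a replicate, so those p-values rest on the spread of the other group and the shared variance. A call kept, gained or lost in such a fit is a description only.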

Additional observations from a re-analysis of the deposited data

How the results depend on the processing

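The count of marker probe sets that passed, 6, was 0 without the intensity filter, 3 without the intensity trend and 2 to 5 when 1 array was left out. It was 5 to 7 under the other alternatives. The count over all probe sets, 747, was 48 without the filter, 395 without the trend and 303 to 749 with 1 array left out. Pairs of probe sets that differed in their change, 113, were 32 without the filter, 75 with a filter at percentile 60, 168 with a replicate block and 86 to 118 with 1 array left out. The cause of these shifts was not tested. With the replicate number as a block 892 probe sets and 7 marker probe sets passed, the seventh being Gja1 100065_r_at (log2 change 0.77, adjusted p = 0.025). The labels do not say that the numbers pair the pools, and the deviations of same-numbered pools correlated at 0.056 across probe sets. Of 203 marker values under alternatives, 174 kept direction and side of the threshold, 21 lost the call, 3 gained it and 5 changed sign, none of them called. The sign changes came with 1 array left out, where Gfap 94143_at ranged from -0.46 to 0.26, Glul 161826_r_at from -0.27 to 0.20 and Sparcl1 from -0.15 to 0.00. The difference between the Glul probe sets, which is not among the 203 values, also changed sign there and ranged from -0.06 to 0.93. Of 35 called list genes and Aqp4 neighbours, 2 passed without the filter, 19 without the trend, and 15 and 17 without transgenic replicate 1 or 2. After quantile normalization 29 passed, and Lamb1, Sorl1, Dio2 and Hk1 were among the 6 lost.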

Other observations

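Markers of other cell types were read from the same fit. Among 21 tested neuron genes 1 rose and 4 fell (23.8%, against 9.49% of all genes), with a median log2 change of -0.37. Elavl3, an RNA-binding protein of neurons, read 6.1 and 4.7 in the control pools, under the floor, and 487.4 and 489.4 in the transgenic pools (limma adjusted p = 1.53e-06). Camk2a, a kinase of excitatory synapses, fell 2.9-fold, from 136.6 and 121 to 31.2 and 62.9 (adjusted p = 0.0241). The abundant neuronal genes Uchl1, Snap25 and Vsnl1 fell by 0.40, 0.37 and 0.47 on the log2 scale, and each of the 3 lost its call without control replicate 1, transgenic replicate 1 or transgenic replicate 2, as did Uchl1 and Snap25 without control replicate 2. Camk2a lost its call without transgenic replicate 1. Snap25 and Vsnl1 also lost it after quantile normalization, as Apoe did.

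Of 9 tested oligodendrocyte genes 1 fell (11.1%, against 9.49% of all genes), Qdpr, which recycles biopterin (1.55-fold, limma adjusted p = 0.00894). Mag had -0.59 ± 0.24 SE and Car2 -0.23 ± 0.12 SE. Of 11 microglia genes 1 fell (9.09%), the adaptor Tyrobp (1.94-fold, limma adjusted p = 0.0127). The complement genes C1qb and C1qa had -0.60 ± 0.17 SE and -0.34 ± 0.13 SE. Of 13 endothelial and mural genes 1 rose (7.69%), the growth factor receptor Flt1, by 0.85 on the log2 scale at its brightest probe set. At 98453_at Flt1 rose by 3.03, with both control readings (17.0 and 19.5) under the floor of 19.675, so the floor sets the size of that change. Cldn5 and Vtn had 0.56 ± 0.17 SE and 0.42 ± 0.20 SE. The shares called in these lists lay near that of all genes. Qdpr, Tyrobp and Flt1 did not pass without transgenic replicate 1, and Tyrobp and Flt1 did not pass without transgenic replicate 2. Among 3 genes of oligodendrocyte precursors (Sox10, Nkx2-2 and Pdgfra), 2 of choroid plexus and ependyma (Igfbp2 and Foxj1) and 7 of the meninges (Lum, Col1a1 and Igf2 having the smallest p), 0 passed in limma, and their log2 changes lay between -0.70 for Lum and 0.38 for Igfbp2 among the genes named here.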
